A study of Mus musculus with 38 samples.

Results

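Mouse embryonic stem cells that carry a knockout of Snf2h were compared with wild-type cells by RNA-seq, in 4 libraries of the 38 in the series. They are the 2 libraries labelled Snf2hko and the 2 labelled wild type (replicates 3 and 4) that share the experimental batch 2457 and were taken after 24 h in DMSO, the solvent control. Genes of chromosome Y were left out of every test, because the lines differ in them. All cells are of the 129S6/SvEvTac background and were grown on gelatin in medium with 15% serum and leukemia inhibitory factor, and no feeder cells are mentioned. Batch 2457, the second, holds 12 libraries in 6 groups of 2, made of 3 genotypes (wild type, Snf2hko and Ino80ko) and 2 treatments (DMSO, or BRM014 at 10 µM, each for 24 h). BRM014 is an inhibitor of the ATPases of the SWI/SNF chromatin remodellers. The BRM014 libraries of the same lines, the Ino80ko libraries in DMSO and 2 wild-type DMSO libraries of batch 2450 are used below as further reference points. The labels do not say how the knockout lines were made or whether each is 1 clone. Libraries are called biological replicates, but no source ties them to separate cultures or days. Each p-value is therefore set against the spread of these libraries alone, and that spread may be technical.

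Snf2h, encoded by Smarca5, is an ATPase of the ISWI family. ISWI remodellers use ATP to slide nucleosomes and to space them evenly, and they work in complexes with partners such as Baz and Bptf proteins. In mouse embryonic stem cells Snf2h is known for its part in the regular nucleosome arrays around sites bound by CTCF, the zinc finger protein that shapes chromosome loops together with cohesin.

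The 4 libraries held between 39304391 and 44453556 counts. Levels are given as counts-per-million values (CPM), scaled by TMM factors over the 12 libraries of the batch, and pairs of values are the 2 libraries of a group. Replicates correlated at 0.996 in the knockout line and 0.992 in wild type on the log2 CPM scale over 13114 genes tested. A gene was called when the adjusted p of edgeR's quasi-likelihood test was under 0.05, and changes are log2 fold changes of Snf2hko over wild type with their standard errors (SE), n = 2 libraries in each group. The table lists 6709 of 21897 protein-coding genes at 0 in all 38 libraries. Among them are 4189 of the 4227 genes of several exons whose span overlaps another gene on the same strand, and 1424 of the 1435 genes of 1 exon. A gene listed at 0 is therefore treated as not measured here.

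The label of the knockout could not be checked on its own transcript. Smarca5 was listed at 0 in all 38 libraries, wild type included, and so was Smarca4, which encodes a SWI/SNF ATPase. Among the related ATPases that were measured, Smarca2, the other SWI/SNF ATPase, stood at 45.4 and 43.8 CPM in the knockout line and 10.4 and 10.8 CPM in wild type, a 4.19-fold rise (2.07 ± 0.10 on the log2 scale, SE; adjusted p = 4.14e-12). Smarca1, which encodes Snf2l, the other ISWI ATPase, stood at 54.5 and 52.6 CPM in the knockout line and 75.8 and 82.4 CPM in wild type and fell (-0.56 ± 0.07; adjusted p = 1.59e-06). Ino80, the ATPase of another remodeller, fell from 169.9 and 170.2 CPM to 126 and 121 CPM (-0.46 ± 0.07). Smarca2 (ENSMUSG00000024921) lies at chr19:26605050-26778322, plus strand (GRCm38). For all 3 genes the knockout and wild-type libraries did not overlap. The share of all genes tested that do so is not given, so this separation is no further result. In the wild type of batch 2450 Smarca2 stood at 11.5 and 15.6 CPM, Smarca1 at 58.4 and 65.0 CPM and Ino80 at 144 and 157 CPM, so that Smarca1 lay closer to the knockout line there than in batch 2457. The genes of chromosome Y that were left out set the lines apart. Uty stood at 0.458 and 0.566 CPM in Snf2hko against 51.1 and 59.6 CPM in wild type, and Eif2s3y at 3.09 and 3.05 CPM against 82.9 and 94.4 CPM. The Ino80 transcript stood at 124 and 119 CPM in the libraries labelled Ino80ko, so its level there was about that in Snf2hko and does not check that label. In the Ino80ko line Uty stood at 54.7 and 57.6 CPM.

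Over the whole transcriptome 7412 of the 13114 genes tested (56.5%) were called in DMSO. Of all genes tested, 3786 (28.9%) were higher in Snf2hko and 3626 (27.6%) lower, and the median log2 fold change was 0.00. Calls with at least a 2-fold change were 1415 higher (10.8%) and 1109 lower (8.46%). Most calls were thus smaller than 2-fold, and tested against a change of 1.5-fold in place of 0 the number of calls was 2643. Changes of 2-fold or more were commoner among genes that were low in wild type. Of 2973 genes under 1 CPM in wild type 21.6% rose and 11.1% fell by at least 2-fold, whereas of 2471 genes at 100 CPM or more 1.42% rose and 2.06% fell. Genes low in wild type could pass the filter on low counts through another group, so their split by direction is partly set by that filter. The median wild-type level was 1.40 CPM for the genes that rose at least 2-fold, 2.44 CPM for those that fell, and 15.6 CPM for all genes tested. Exonic length (medians of 3434, 3422 and 3708 bases) and number of exons (7, 8 and 8) were close in these 3 sets.

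**Figure D1:**
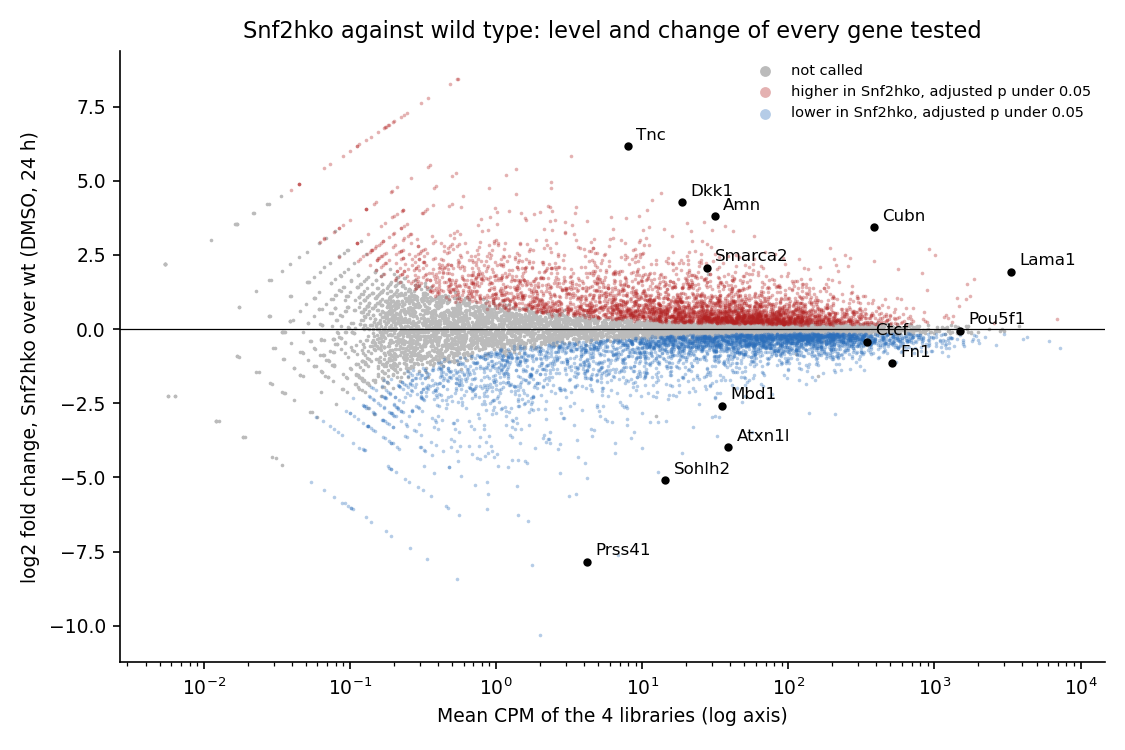
Mean CPM of the 4 libraries (log axis) against the log2 fold change of Snf2hko over wild type in DMSO for each gene tested, with red and blue for genes called higher and lower and grey for the rest. Tnc (6.16) and Prss41 (-7.84) lie far from 0 at low levels, Cubn (3.42) and Lama1 (1.94) are high at high levels, and Pou5f1 lies near 0.

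The largest rises included the matrix gene Tnc, the Wnt inhibitor Dkk1 and the receptor genes Amn and Cubn. By the rule for named genes, which took the largest changes among called genes with a mean log2 CPM of at least 2, 15 genes stood between 10.7-fold and 71.5-fold above wild type. Tnc, the matrix protein tenascin C, was at 17.8 and 13.6 CPM in the knockout line and 0.178 and 0.252 CPM in wild type (log2 fold change 6.16 ± 0.26; adjusted p = 7.01e-13). Dkk1, a secreted inhibitor of Wnt signalling, was at 36.2 and 34.7 CPM in the knockout line and 1.60 and 2.04 CPM in wild type (4.27 ± 0.12; adjusted p = 1.89e-15). Fbln2, the matrix protein fibulin 2, was at 23.8 and 17.1 CPM in the knockout line and 1.04 and 1.44 CPM in wild type (4.03 ± 0.21). The rule also asked that the libraries of the 2 groups not overlap, so their separation in these genes is no further result. In the list of extracellular matrix genes 14 of 21 tested members rose and 5 fell, against 28.9% and 27.6% of all genes tested (median 0.57). Of those that rose, Lama1, Lamb1, Sparc and Col4a2 are also on the primitive endoderm list below.

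Amn and Cubn encode amnionless and cubilin, which together form an endocytic receptor of visceral endoderm and gut. Amn was at 56.1 and 61.4 CPM in the knockout line and 4.17 and 4.19 CPM in wild type (3.81 ± 0.13; adjusted p = 2.92e-14). Cubn was at 713 and 691 CPM in the knockout line and 63.8 and 67.1 CPM in wild type (3.42 ± 0.11; adjusted p = 2.25e-13). Cubn (ENSMUSG00000026726) lies at chr2:13276338-13491813, minus strand, and both genes are members of the primitive endoderm list below. Ihh, the ligand Indian hedgehog, rose 13.9-fold (17 and 18.5 CPM against 1.73 and 0.846 CPM), and Klb, the FGF co-receptor beta-klotho, rose 11.0-fold (67.6 and 68.0 CPM against 6.53 and 5.83 CPM). Aqp8, a water channel, rose 11.9-fold (33.6 and 41.0 CPM against 2.39 and 3.82 CPM).

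Also in this group were Platr15, a noncoding transcript (4.6), the calcium-binding proteins S100a1 (3.79) and S100g (3.74), Adrb1, an adrenergic receptor (3.64), Fbp2, a gluconeogenic phosphatase (3.62), and Clic5, an intracellular chloride channel protein (3.45), all as log2 fold changes. The wild-type libraries of batch 2450 stood above those of batch 2457 in several of these genes. Cubn was at 131 and 205 CPM there, Amn at 12.4 and 11.6 CPM and Dkk1 at 4.33 and 4.64 CPM, which lay between the wild type of batch 2457 and the knockout line.

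The largest falls included Prss41, Sohlh2, Atxn1l and the zinc finger gene Zfp507. The 15 genes named by the same rule stood between 10.4-fold and 230-fold below wild type. Prss41, a serine protease of the testis, was at 0.0458 and 0.0218 CPM in the knockout line and 7.45 and 9.35 CPM in wild type (-7.84 ± 0.35; adjusted p = 1.14e-12), with 3 counts in the 2 knockout libraries together against 702 in wild type, a ratio of 252.5 (95% exact interval 86.1 to 1227, counting error only). Sohlh2, a transcription factor of early germ cell differentiation, was at 0.641 and 0.980 CPM in the knockout line and 28.0 and 27.7 CPM in wild type (-5.09 ± 0.16; adjusted p = 8.62e-15). Cyct, the testis form of cytochrome c, was at 1.21 and 1.13 CPM in the knockout line and 19.7 and 17.9 CPM in wild type (-4.0 ± 0.15). Nlrp4f, of an oocyte-expressed Nlrp gene family, was at 0.847 and 0.544 CPM in the knockout line and 8.39 and 8.42 CPM in wild type (-3.59 ± 0.23). All of these were well above their knockout level in the wild type of batch 2450 as well, with Sohlh2 at 37.0 and 33.5 CPM and Cyct at 19 and 17.2 CPM.

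Genes with other roles fell as far. Atxn1l, a relative of ataxin 1 that binds the repressor Capicua, fell from 74.7 and 71.7 CPM to 4.42 and 4.81 CPM (-3.99 ± 0.09; adjusted p = 1.71e-16). The zinc finger gene Zfp507 fell from 105 and 101 CPM to 8.92 and 9.51 CPM (-3.48 ± 0.09), and Zfp772 fell 10.6-fold. Miip, an inhibitor of cell migration, fell from 34.9 and 35.7 CPM to 1.81 and 2.05 CPM (-4.19 ± 0.12). In the wild type of batch 2450 Atxn1l was at 69.8 and 86.5 CPM, Miip at 38.8 and 33.1 CPM and Zfp507 at 91.5 and 102 CPM, so these falls were larger than the spread between wild-type libraries and batches. The remaining 7 were Tmem141 (-5.02), Slc4a5, a bicarbonate transporter (-4.84), Fggy, a carbohydrate kinase (-4.52), Ubash3a, a regulator of T cell receptor signalling (-3.85), Fndc3c1 (-3.68), Dtna, which encodes dystrobrevin alpha (-3.48), and Man2b2, a mannosidase (-3.37), as log2 fold changes.

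Genes that were near 0 in 1 line and on in the other were few. With limits of under 0.1 CPM in both libraries of 1 line and at least 1 CPM in both of the other, 14 genes were off in Snf2hko and 5 in wild type. The highest of the 14 in wild type were C330024D21Rik (0.0915 and 0.0435 CPM in the knockout line and 11.9 and 15.3 CPM in wild type) and Prss41. Gm32885 had no count in the knockout line and 331 in wild type, so its wild-type level was at least 57.9-fold higher, taking 3 counts in a library as the floor. D5Ertd605e had 1 count against 292, a ratio of 315 (95% exact interval 56.1 to 12488.0, counting error only), and Mindy4, a deubiquitinase, had 3 against 274, a ratio of 98.6 (33.4 to 480.9). Further named genes were D030068K23Rik (0 and 0.0653 CPM against 2.52 and 3.11 CPM), Pstpip2, an adaptor of the actin cytoskeleton (0.0915 and 0.0435 CPM against 2.77 and 2.68 CPM), and Piwil1, a PIWI protein of the male germ line (0.0686 and 0.0871 CPM against 2.14 and 1.83 CPM). The 5 genes off in wild type were Gm40663, Blk, Gm37867, Ttr and Apoa4. Blk encodes a B cell kinase and was at 1.99 and 2.59 CPM in the knockout line and 0.0254 and 0.0915 CPM in wild type. Ttr and Apoa4, which encode transthyretin and an apolipoprotein and are expressed in visceral endoderm, were at 1.21 and 1.07 CPM against 0 and 0.0915 CPM and 1.12 and 1.07 CPM against 0 and 0 CPM. Apoa4 had no count in wild type and was at least 14.3-fold higher in the knockout line. Leaving out a library can only keep or raise these counts, because fewer libraries then have to meet the limits. Without the first Snf2hko library 24 genes were off in Snf2hko, and without the second 23. Without the second Snf2hko library 11 genes were off in wild type, without wild-type replicate 3 it was 13, and without wild-type replicate 4 it was 10.

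Primitive endoderm genes rose together. The primitive endoderm is the extraembryonic layer that arises beside the epiblast, from which embryonic stem cells derive, and GATA factors and SOX17 direct its fate while laminins and collagen IV form its basement membrane. Of 20 genes on the list 4 were listed at 0 (Col4a1, Hnf4a, Lamc1 and Pdgfra), 15 were tested, 14 of these rose by at least 2-fold and none fell, against 10.8% of all genes that rose so far. The median log2 fold change of the list was 2.21, and that of all genes tested was 0.00. The members of this and every other list were chosen with earlier results of these data known. Contrasts of a list with all genes may therefore be partly set by that choice. The member that was not called, Apoa1, was at 0.114 and 0.109 CPM against 0.0763 and 0.137 CPM.

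Among the transcription factors Gata6 was at 98.7 and 96.1 CPM in the knockout line and 18.9 and 19 CPM in wild type (2.36 ± 0.08; adjusted p = 1.69e-14). Gata4 was at 212 and 222 CPM in the knockout line and 57.9 and 49.7 CPM in wild type (2.01 ± 0.10; adjusted p = 2.52e-12). Sox17 was at 75.2 and 74.4 CPM in the knockout line and 12.6 and 13.9 CPM in wild type (2.50 ± 0.12; adjusted p = 5.50e-12), and Sox7, a close relative, rose 4.62-fold. Foxa2, a forkhead factor of endoderm, was at 26.4 and 26.9 CPM in the knockout line and 5.92 and 5.86 CPM in wild type (2.18 ± 0.11). Each of these factors was between 4.04-fold and 5.64-fold higher. Sox17, Gata4, Foxa2 and Sox7 were chosen for mention after their values were seen.

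Genes of the basement membrane and of the endocytic receptor rose as well. Lama1, a laminin alpha chain, was at 5161 and 5384 CPM in the knockout line and 1425 and 1329.8 CPM in wild type (1.94 ± 0.09; adjusted p = 1.33e-12). Lamb1, a laminin beta chain, was at 2805 and 2913 CPM in the knockout line and 926 and 859 CPM in wild type (1.68 ± 0.08), and Sparc, a collagen-binding matrix protein, was at 2399.7 and 2543 CPM in the knockout line and 898 and 815 CPM in wild type (1.53 ± 0.07). Dab2, the endocytic adaptor of the cubilin and megalin receptors, was at 189 and 205 CPM in the knockout line and 38.4 and 37.8 CPM in wild type (2.37 ± 0.10). Summed over the list, the level was 13047 and 13656 CPM in the knockout line and 3845 and 3545 CPM in wild type. Lama1, Lamb1 and Sparc made up most of these sums. The wild type of batch 2450 summed to 4818 and 5836 CPM, above the other wild type but below the knockout line. In bulk samples a larger share of cells of a type and more RNA per cell cannot be told apart.

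**Figure D2:**
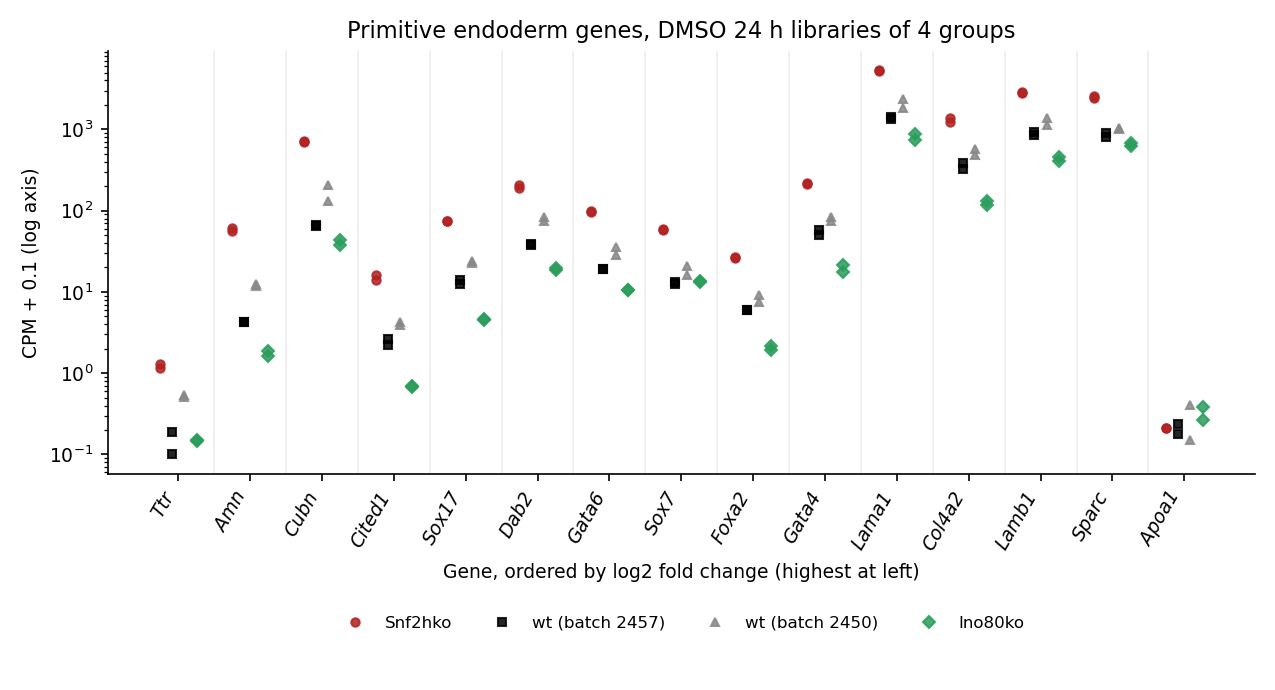
CPM plus 0.1 (log axis) of the 15 primitive endoderm genes tested in each DMSO library after 24 h: Snf2hko (red circles), wild type of batch 2457 (black squares) and batch 2450 (grey triangles) and Ino80ko (green diamonds), 2 libraries each. In the 14 genes called higher the red points lie above all others, which is no further result beside the calls. In Apoa1 all points are near the floor.

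The trophectoderm list had 9 of 13 tested members called higher and 3 called lower, against 28.9% and 27.6% of all genes tested, with a median of 1.45. The lowest adjusted p was that of Krt8, a keratin of simple epithelia, at 351 and 349.5 CPM in the knockout line and 94.6 and 86.3 CPM in wild type (1.95 ± 0.07; adjusted p = 1.07e-13), and its partner Krt18 was at 195 and 199 CPM in the knockout line and 71.2 and 66.1 CPM in wild type (1.52 ± 0.08). The factors Tead4 (1.34 ± 0.09), Eomes (1.96 ± 0.13) and Cdx2 (2.09 ± 0.24) rose. Cdx2, the factor that specifies trophectoderm, was at 4.16 and 4.57 CPM against 1.14 and 0.915 CPM. The 3 members that fell were Tfap2c, at 18.8 and 17.1 CPM against 72.8 and 69.6 CPM (-1.99 ± 0.10), Ascl2 (-1.21) and Krt7 (-1.13). Tfap2c and Ascl2 are regulators of trophoblast.

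Markers of other cell types were mixed, in counts that stand against 28.9% of all genes tested called higher and 27.6% called lower. The mesoderm and primitive streak list had 7 of 14 tested members called higher and 1 called lower (median 0.70), and its summed level was 58.1 and 60.2 CPM in the knockout line against 34.1 and 34.2 CPM. The neural list had 6 of 11 tested members called higher and 1 called lower (median 0.76, but 0.29 without wild-type replicate 3 and 0.42 without the second Snf2hko library), with sums of 211 and 209 CPM against 143 and 148 CPM, and 7 of its 22 genes, Sox1, Tubb3 and Map2 among them, listed at 0. Of the fibroblast markers 5 of 10 rose and 2 fell (median 0.40, but 0.97 without wild-type replicate 4), with Cdh11, Col1a2, Col3a1, Prrx1, S100a4 and Twist2 listed at 0, and their sums were 447 and 392 CPM against 761 and 772 CPM. Fn1, which encodes fibronectin, fell from 695 and 711 CPM to 342 and 295 CPM and made up most of these sums, while Acta2, smooth muscle actin, rose from 13.1 and 9.63 CPM to 33.4 and 30.9 CPM. The part of such cells in the results was not tested.

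The markers of embryonic stem cells were present in every library. Pou5f1, the core pluripotency factor Oct4, was at 1369 and 1548 CPM in the knockout line and 1614 and 1409 CPM in wild type (-0.05 ± 0.08; adjusted p = 0.598). Zfp42 (459.5 and 477 CPM against 513 and 500.0 CPM), Esrrb (518 and 550.0 CPM against 577 and 542 CPM) and Dppa5a (886 and 955 CPM against 1007 and 949.9 CPM) were not called either. Nanog was at 474 and 456 CPM in the knockout line and 561 and 543 CPM in wild type and fell slightly (-0.25 ± 0.06; adjusted p = 0.00162). Utf1 (102 and 98.5 CPM against 170.1 and 159 CPM) and Tdgf1, a Nodal co-receptor (689.8 and 678 CPM against 974 and 939.6 CPM), fell, and Klf4 rose (239 and 235 CPM against 188 and 193 CPM). Both lines thus carried the defining markers of embryonic stem cells. In the wild type of batch 2450 Klf4 was at 234 and 251 CPM and Nanog at 472 and 549.7 CPM, so both of its libraries for Klf4, and 1 of 2 for Nanog, lay at the level of the knockout line.

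Across the core pluripotency list the changes were small and in 1 direction. Of 18 members tested 14 fell, none rose and none changed by 2-fold, against 27.6% of all genes that fell, and the median was -0.37. The lowest adjusted p values were those of Zfp281, a zinc finger regulator of the exit from pluripotency (-0.68 ± 0.07), and Dppa2, which acts at developmental promoters (-0.60 ± 0.06). The naive list had 3 of 17 tested members called higher and 7 called lower, against 28.9% and 27.6% of all genes tested. Dppa3 fell 5.91-fold, from 8.97 and 7.71 CPM to 1.58 and 1.24 CPM, Klf2 (-0.89) and Fbxo15 (-0.74) fell, and Tbx3, a T-box factor that also marks primitive endoderm, rose from 84.1 and 86.0 CPM to 202 and 181 CPM (1.17 ± 0.10).

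Germline and meiosis genes fell together, in a list also chosen with earlier results of these data known. Many genes of this kind are transcribed at a low level in embryonic stem cells and are held down by DNA methylation and by repressor complexes that bind E-box and E2F-type sequences in their promoters. Of 24 genes on the list 21 were tested, 14 fell, 11 of them by at least 2-fold, and 2 rose, against 27.6% of all genes that fell, 8.46% that fell by at least 2-fold and 28.9% that rose. The median was -1.01, and the list summed to 189 and 188 CPM in the knockout line against 359 and 366 CPM in wild type and 375 and 408 CPM in the wild type of batch 2450.

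Because these members moved together, their promoters are shown for 5 of them. The sequences are those of RefSeq (GRCm38.p6), 250 bases before to 50 after the first listed start, 5′ to 3′ on the gene's strand, and the positions are those of the same build. Capitals mark every match to the E-box CACGTG or to the E2F-type sequence GCGGGA on either strand (TCCCGC on the other). Sycp3 and Hormad1 hold 2 E-boxes and 1 E2F-type sequence each, and Tdrd1 holds 1 E-box alone. Tex19.1 holds the E2F-type sequence alone, and Mael, 1 of the 2 members that rose, holds both sequences.
Sycp3 (chr10:88459337-88459636, plus strand): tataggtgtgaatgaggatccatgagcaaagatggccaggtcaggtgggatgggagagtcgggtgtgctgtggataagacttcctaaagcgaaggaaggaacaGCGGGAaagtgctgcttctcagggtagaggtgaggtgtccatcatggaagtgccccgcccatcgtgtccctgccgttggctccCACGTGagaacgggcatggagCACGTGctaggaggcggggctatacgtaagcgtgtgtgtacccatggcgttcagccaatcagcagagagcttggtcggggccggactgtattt
Hormad1 (chr3:95559427-95559726, plus strand): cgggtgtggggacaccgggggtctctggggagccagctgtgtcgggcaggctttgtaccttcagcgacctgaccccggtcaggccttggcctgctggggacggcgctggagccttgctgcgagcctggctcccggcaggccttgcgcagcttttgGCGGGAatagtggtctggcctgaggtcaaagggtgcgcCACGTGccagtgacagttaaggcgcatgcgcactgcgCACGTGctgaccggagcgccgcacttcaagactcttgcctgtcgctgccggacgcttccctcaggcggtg
Tdrd1 (chr19:56825959-56826258, plus strand): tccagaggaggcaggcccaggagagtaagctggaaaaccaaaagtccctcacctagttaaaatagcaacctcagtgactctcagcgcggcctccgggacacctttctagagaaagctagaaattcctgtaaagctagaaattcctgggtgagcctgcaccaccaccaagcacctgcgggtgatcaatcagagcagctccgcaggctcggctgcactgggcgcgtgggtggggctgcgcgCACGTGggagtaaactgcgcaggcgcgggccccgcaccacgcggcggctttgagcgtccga
Tex19.1 (chr11:121145893-121146192, plus strand): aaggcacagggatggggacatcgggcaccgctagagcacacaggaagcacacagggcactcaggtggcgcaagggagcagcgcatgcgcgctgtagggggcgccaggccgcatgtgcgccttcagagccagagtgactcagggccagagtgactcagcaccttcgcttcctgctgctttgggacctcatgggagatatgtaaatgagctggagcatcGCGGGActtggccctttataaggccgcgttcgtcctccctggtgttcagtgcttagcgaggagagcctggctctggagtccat
Mael (chr1:166238695-166238994, minus strand): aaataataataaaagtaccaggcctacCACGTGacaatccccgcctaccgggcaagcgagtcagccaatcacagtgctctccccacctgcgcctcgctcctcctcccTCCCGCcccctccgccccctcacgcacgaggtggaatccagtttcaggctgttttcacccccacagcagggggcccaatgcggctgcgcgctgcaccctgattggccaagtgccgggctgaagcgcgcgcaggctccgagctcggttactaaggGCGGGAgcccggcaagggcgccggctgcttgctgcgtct

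All 21 tested members had a RefSeq promoter in the reference table. An E-box was found in 11 of the 21 (52.4%) against 9.85% of the 9663 tested genes with a promoter in the table (73.7% of genes tested, so this share is incomplete) and 7.24% of all 27025 promoters of the table. It was found in 8 of the 14 members that fell and in 3 of the 7 that did not. The E2F-type sequence was found in 9 of 21 (42.9%), against 33.9% of the same tested genes and 20% of all promoters, in 6 of the 14 and 3 of the 7. Its share was thus closer to that of tested genes than to that of all promoters. The motifs were chosen after the values were seen, and a match is a description of the letters only.

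Sycp3, a lateral element protein of the synaptonemal complex, was at 1.95 and 1.76 CPM in the knockout line and 6.10 and 7.75 CPM in wild type (-1.90 ± 0.16; adjusted p = 8.62e-09). Hormad1, a meiotic chromosome axis protein, was at 8.54 and 7.55 CPM in the knockout line and 17.6 and 17.7 CPM in wild type (-1.13 ± 0.11; adjusted p = 8.54e-08). Tdrd1, a tudor protein of the piRNA pathway, was at 5.40 and 4.90 CPM in the knockout line and 14.5 and 13.0 CPM in wild type (-1.42 ± 0.12; adjusted p = 6.77e-09). Tex19.1, which restrains retrotransposons in germ cells, was at 16.3 and 18.5 CPM in the knockout line and 86.0 and 81.3 CPM in wild type (-2.27 ± 0.09; adjusted p = 9.64e-14). The knockout libraries lay below both wild-type libraries for each of them. The share of all genes is again not given, and these genes were named for their values, so this separation is no further result.

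Syce1, of the central element of the synaptonemal complex, fell 4.51-fold (12.8 and 11.9 CPM against 57.4 and 54.0 CPM) and Sycp2 fell 6.37-fold (0.778 and 0.697 CPM against 4.42 and 4.99 CPM). The 2 members that rose did so by less than 2-fold. Mael, of the piRNA pathway, was at 30.7 and 30.5 CPM in the knockout line and 20.9 and 19.3 CPM in wild type (0.61 ± 0.08), and Tuba3a, a testis tubulin, was at 18.5 and 18.5 CPM in the knockout line and 12.8 and 10.3 CPM in wild type (0.68 ± 0.13). The printed promoters of Sycp3, which fell 3.74-fold, of Hormad1, which also fell, and of Mael, which rose 1.52-fold, hold both motifs.

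**Figure D3:**
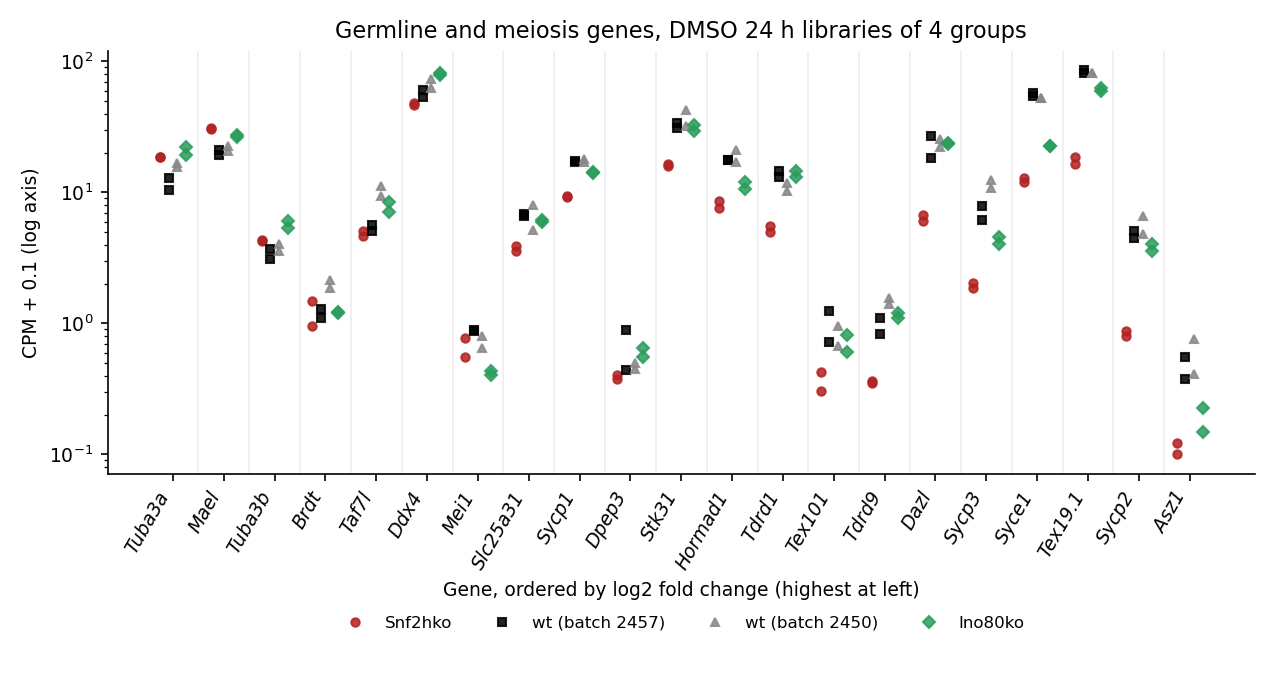
CPM plus 0.1 (log axis) of the 21 germline and meiosis genes tested in each DMSO library after 24 h, for Snf2hko (red circles), wild type of batch 2457 (black squares) and of batch 2450 (grey triangles) and Ino80ko (green diamonds). In Sycp2, Tex19.1, Syce1 and Sycp3 at the right the red points lie lowest, while in Tuba3a and Mael at the left they lie above both wild-type libraries of batch 2457.

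The measured genes of ISWI complexes mostly fell, by less than 2-fold with 1 exception. Of 17 on the list 13 were tested, 9 fell, the ATPase gene Smarca1 among them, and 1 rose (median -0.47). The shares of all genes were 27.6% lower and 28.9% higher. Baz1a, Baz1b, Baz2b and Smarca5 were listed at 0, so these Baz partners were not measured. Cecr2, a partner of the ISWI ATPases, was at 79.9 and 79.8 CPM in the knockout line and 186 and 198 CPM in wild type (-1.27 ± 0.07; adjusted p = 1.45e-11), the only member changed by 2-fold. Myo1c, the member that rose, was at 387 and 412 CPM against 236 and 204 CPM. In the list of other remodellers 11 of 20 fell and 3 rose, against the same shares, with Chd7 at 83.0 and 76.9 CPM against 184 and 185 CPM (-1.20 ± 0.08) and Smarcc1, a core SWI/SNF subunit, at 288 and 266 CPM against 539 and 539 CPM (-0.96 ± 0.09).

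Of 19 CTCF and cohesin genes tested 11 fell and 1 rose, against 27.6% and 28.9% of all genes tested (median -0.30). Ctcf itself was at 301 and 288 CPM in the knockout line and 394 and 397 CPM in wild type and fell by less than 1.5-fold (-0.42 ± 0.06; adjusted p = 1.05e-05). The 2 members that fell by at least 2-fold are known from meiosis or testis, namely Stag3, the meiotic cohesin subunit (38.4 and 35.8 CPM against 77.5 and 88.8 CPM), and Ctcfl, the testis paralog of Ctcf (0.183 and 0.0435 CPM against 1.60 and 1.58 CPM). Mau2, of the cohesin loader, was the member that rose (0.48 ± 0.07).

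Several chromatin regulators changed singly, and the counts of the next 3 lists stand against 28.9% of all genes tested called higher and 27.6% called lower. Mbd1, which binds methylated CpG sites, was at 10.0 and 10.2 CPM in the knockout line and 62.7 and 58.4 CPM in wild type (-2.58 ± 0.08; adjusted p = 1.69e-14), while the DNA methylation list had 2 of 14 tested members called higher and 9 called lower (median -0.32), with Dnmt3a at 160.1 and 176 CPM against 316 and 285 CPM. Among Polycomb genes, 8 of 20 tested members were called higher and 7 lower (median 0.10), not far from those shares. Phc1, of Polycomb repressive complex 1, fell from 485 and 469 CPM to 186 and 180.1 CPM (-1.38 ± 0.08), and Bmi1, a subunit of the same complex, rose from 12.5 and 14.7 CPM to 31.8 and 30.4 CPM (1.19 ± 0.10). The list of Hox and homeobox regulators, many of them Polycomb targets, had 11 of 21 tested members called higher and 3 called lower (median 1.0). Msx2, a homeobox factor, was at 16.6 and 16.3 CPM against 4.27 and 3.43 CPM.

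Signalling lists held changes in both directions, where 28.9% of all genes tested were higher and 27.6% lower. Among Wnt pathway genes 11 of 24 tested members were called higher and 5 lower (median 0.26, but 0.06 without wild-type replicate 3 and 0.39 without replicate 4). Besides Dkk1, the ligand Wnt6 rose 10.2-fold (18.5 and 18.1 CPM against 1.5 and 2.08 CPM) and the feedback inhibitor Axin2, a direct target of the pathway, rose 3.01-fold (32.2 and 33.9 CPM against 11.2 and 10.8 CPM), whereas Ccnd1, which encodes cyclin D1, fell (185 and 194 CPM against 363 and 345 CPM). Among FGF pathway genes 10 of 25 tested members were called higher and 11 lower (median -0.11). The ligands Fgf3 (41.3 and 44.2 CPM against 7.45 and 7.36 CPM) and Fgf10 (2.44 ± 0.16) and the receptors Fgfr4 (17 and 17.4 CPM against 3.02 and 2.84 CPM) and Fgfr3 (1.41 ± 0.09) rose, while Egr1, an immediate early target of ERK, fell from 10.2 and 12 CPM to 2.38 and 2.55 CPM.

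In the Nodal and TGF-beta list 8 of 20 tested members were called higher and 7 lower, against 28.9% and 27.6% of all genes tested (median 0.11). Lefty1, a Nodal antagonist and target, fell from 84.0 and 76.2 CPM to 19.9 and 23.1 CPM. The activin subunit Inhba rose from 0.178 and 0.0457 CPM to 2.88 and 2.33 CPM, and Bmp4, the ligand of the BMP list, rose from 75.1 and 75.1 CPM to 159 and 165 CPM.

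Sterol synthesis genes rose, in a list chosen, like the others, with earlier results of these data known. Of 22 tested SREBP targets, which encode enzymes and regulators of cholesterol synthesis and uptake, 18 rose and 2 fell, against 28.9% and 27.6% of all genes tested, with a median of 0.66. Cyp51, a demethylase of the pathway, was at 272 and 265 CPM in the knockout line and 96.6 and 93.3 CPM in wild type (1.5 ± 0.07; adjusted p = 1.98e-12), and Msmo1, an oxidase of the pathway, was at 197 and 189.5 CPM in the knockout line and 94.1 and 87.1 CPM in wild type (1.09 ± 0.07). The squalene synthase Fdft1 rose (0.99 ± 0.06). Dhcr7, a reductase of the pathway, was among those that fell, at 31.0 and 31.4 CPM against 39.1 and 39.4 CPM (-0.33 ± 0.13; adjusted p = 0.0323). In the wild type of batch 2450 it was at 30.2 and 32.0 CPM, and with wild type of both batches the adjusted p of Dhcr7 was 0.204. The call of Dhcr7 was lost without any 1 of the 4 libraries (adjusted p between 0.0994 and 0.141). Summed levels were 4255 and 4405 CPM against 3232 and 3067 CPM, and 2886 and 3069.8 CPM in the wild type of batch 2450.

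Of 18 tested p53 targets 13 rose and 1 fell, against 28.9% and 27.6% of all genes tested (median 0.66). Btg2, an antiproliferative gene, was at 157 and 164 CPM in the knockout line and 60.5 and 57.6 CPM in wild type (1.44 ± 0.07), Plk2, a polo-like kinase, at 168 and 171 CPM against 62.7 and 67.0 CPM, Ccng1, cyclin G1, at 763 and 724 CPM against 345 and 377 CPM, and Phlda3, a repressor of Akt signalling, at 127 and 138 CPM against 60.5 and 56.1 CPM. Zmat3 was the member that fell (52.0 and 45.6 CPM against 94.8 and 99.6 CPM). For this list the choice of wild type mattered. The wild type of batch 2450 stood at 105 and 123 CPM for Btg2, 141 and 154 CPM for Plk2 and 123 and 111 CPM for Phlda3. Its summed levels of 2854 and 3110.3 CPM overlapped those of the knockout line (2967 and 2970.4 CPM), whereas the wild type of batch 2457 summed to 1859 and 1942 CPM. With wild type of both batches and a batch term the median of the list was 0.36.

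Ribosome biogenesis genes fell slightly. Of 16 tested 13 fell and 1 rose, against 27.6% and 28.9% of all genes tested (median -0.48), with Taf1b, a subunit of the Pol I factor SL1, at 16.5 and 14.8 CPM in the knockout line and 43.7 and 41.0 CPM in wild type (-1.44 ± 0.09). Rrp1b (-0.79), Wdr12 (-0.63) and Polr1b (-0.59) fell by less than 2-fold. The rise of Ubtf was small (0.17 ± 0.06), and its call was lost without either Snf2hko library (adjusted p = 0.0552 and 0.131) and without wild-type replicate 4 (0.219). Among interferon response genes 5 of 19 tested members were called higher and 6 lower, near the shares of all genes, with Gbp2, a guanylate-binding protein, at 0.366 and 0.327 CPM against 5.08 and 5.15 CPM and Tap1, the antigen peptide transporter, at 24.9 and 28.1 CPM against 7.70 and 6.88 CPM.

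**Figure D4:**
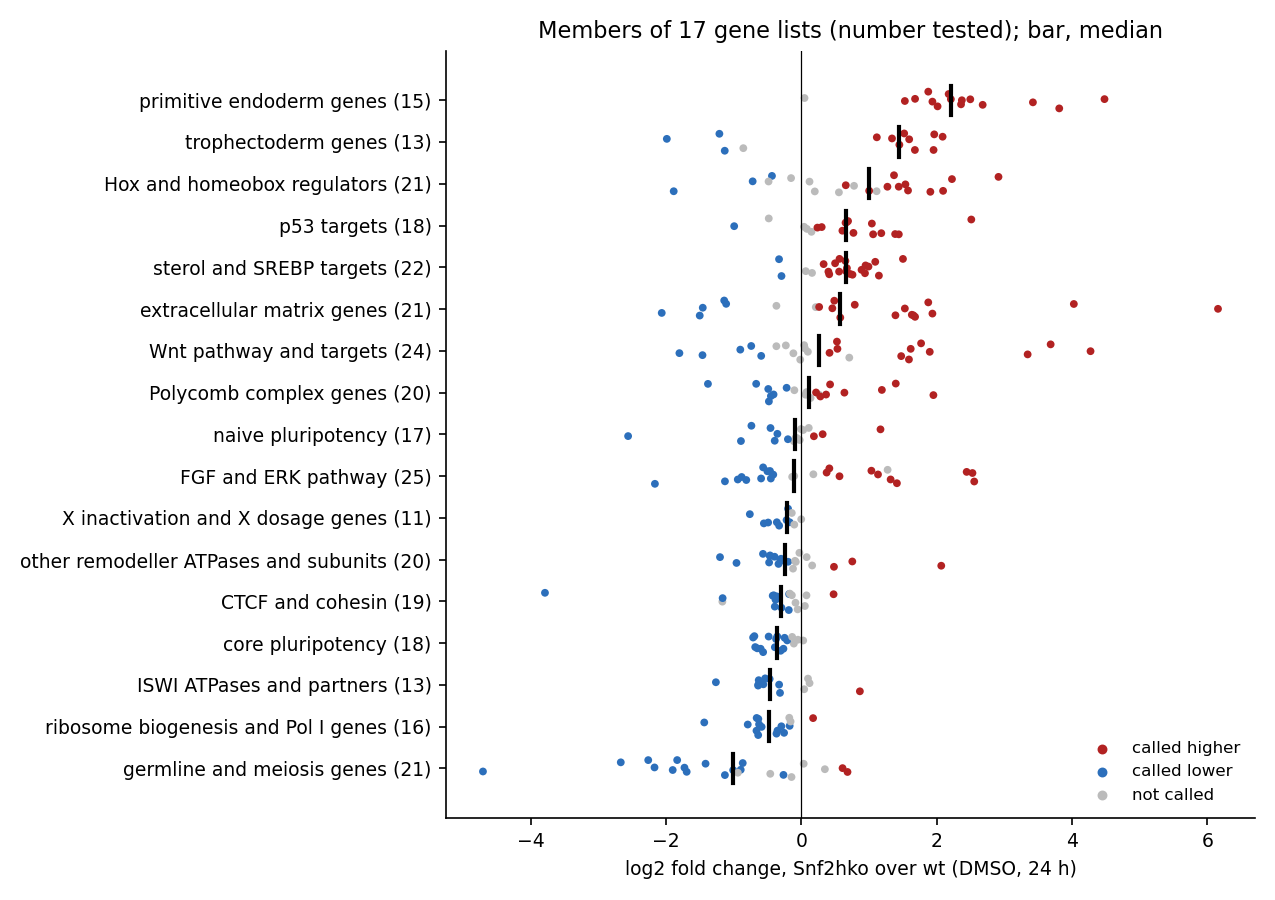
Log2 fold change of Snf2hko over wild type in DMSO for each tested member of 17 gene lists, with the number tested in parentheses, a black bar at the median, and colours for members called higher (red), called lower (blue) or not called (grey). Primitive endoderm genes lie at the top with a median of 2.21 and germline genes at the bottom with a median of -1.01.

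By position, the X chromosome stood apart from the autosomes. Of its 471 genes tested 187 (39.7%) were lower and 110 (23.4%) higher, with a median log2 fold change of -0.18, whereas the medians of the 19 autosomes lay between -0.09 and 0.09 and their shares of lower genes between 23.5% and 31.6%. The list of X-linked dosage genes had 0 of 11 tested members called higher and 8 called lower, against 28.9% and 27.6% of all genes tested (median -0.22), with Hprt, a purine salvage enzyme, at 134 and 127 CPM against 208 and 235 CPM and Kdm6a, a histone demethylase whose Y-linked partner is Uty, at 114 and 116 CPM against 154 and 168 CPM. In BRM014 the median of the X chromosome was -0.07, within the range of the autosomes (-0.09 to 0.15). In Ino80ko, where Uty and Eif2s3y were not reduced, it was -0.21 against the same wild-type libraries.

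Neighbouring genes changed together in places. Runs of at least 4 neighbouring tested genes called in 1 direction numbered 130 for higher genes (627 genes, the longest of 10) and 117 for lower genes (546 genes, the longest of 9). With 56.5% of genes called such runs are common, and no test of their number was made. A run of 8 lower genes at chr11:50811086-51220418 (GRCm38) held the zinc finger genes Zfp354c (15.9 and 15.3 CPM against 29.4 and 32.4 CPM), Zfp879, Zfp454, Zfp2 (14.9 and 14.3 CPM against 24.1 and 23.4 CPM), Zfp354b and Zfp354a, with a median log2 fold change of -1.21 and of 0.03 for the same genes in Ino80ko. A run of 8 lower genes at chr2:150114406-150363071 also held zinc finger genes (Zfp120 and Zfp937; median -0.93). Of the 309 tested genes whose symbol is Zfp and a number, a family noticed after the values were seen, 147 were lower and 38 higher, against 27.6% and 28.9% of all genes tested, with a median of -0.22.

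The 2 runs with the lowest medians were on the X chromosome, with 5 genes of the Xlr family, Xlr3a among them, at chrX:73074345-73222453 (-3.28) and 9 genes around Ott at chrX:148488949-149984982 (-3.26). Both are clusters of closely similar copies, so their counts are uncertain. In Ino80ko, against the same wild-type libraries, the medians of these 2 runs were -3.735 and -2.79, so neither fall was particular to Snf2hko. A run of 9 lower genes at chr8:18595131-20582771 included Mcph1 and Angpt2 (median -1.74). The longest runs of higher genes were 10 genes at chr13:48662998-49464573 from Barx1 to Ippk (median 0.90) and 10 genes at chr11:69759890-69900987 from Slc35g3 to 2810408A11Rik (median 0.91). Promoter features of the genes changed by at least 2-fold are not given, because the reference table matched 72.3% of those that rose and 70.9% of those that fell, too few for such a check.

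The same genotypes were compared after 24 h in BRM014. Here 8100 of the 13114 genes (61.8%) were called, 4242 higher (32.3%) and 3858 lower (29.4%). These libraries are of the same lines but share no library with the DMSO comparison. Of the 7412 genes called in DMSO 4962 were called in the same direction in BRM014 (66.9% of those called in DMSO and 61.3% of those called in BRM014), and 493 in the opposite direction. Of the 2524 changed by at least 2-fold in DMSO 1831 (72.5%) were called in the same direction and 62 in the opposite one. Across all genes, which are not independent replicates, the 2 sets of log2 fold changes correlated at r = 0.67. The wild-type replicate 4 in BRM014 was the shallowest of these libraries, with 21948010 counts.

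**Figure D5:**
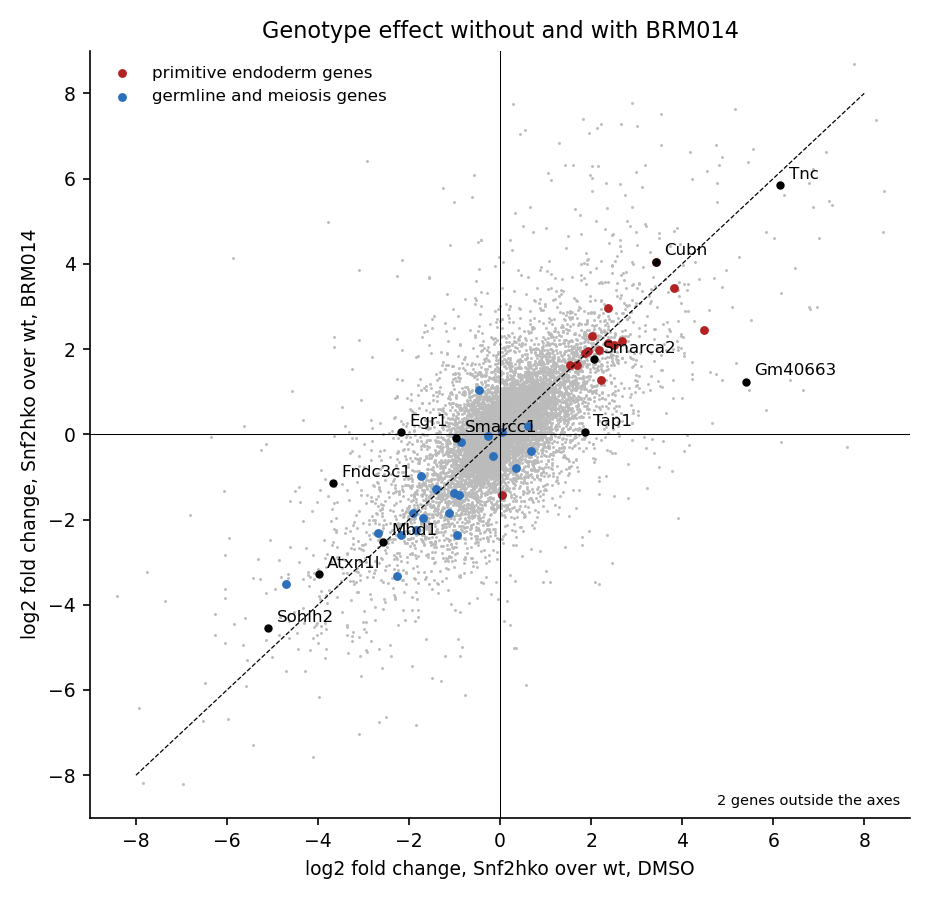
Log2 fold change of Snf2hko over wild type in DMSO against that in BRM014 for each gene tested (grey), with primitive endoderm genes in red and germline genes in blue, a dashed line of equality, and 2 genes outside the axes. Most red points lie near the line at about 2, while Egr1, Tap1 and Smarcc1 lie near 0 in BRM014.

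Primitive endoderm genes were also higher, and germline genes mostly lower, in the knockout line in BRM014. The primitive endoderm list had 14 of 15 members higher, against 32.3% of all genes (median 2.09). The germline list had 16 of 21 lower and 2 higher, against 29.4% and 32.3% (median -1.38), and Tuba3a, which rose in DMSO, was at -0.40 on the log2 scale. Cubn was at 817 and 676 CPM in Snf2hko against 48.7 and 40.8 CPM in wild type under BRM014, and Gata6 was at 170.1 and 167 CPM against 39.4 and 36.2 CPM. Tex19.1 was at 4.85 and 5.48 CPM against 51.7 and 52.4 CPM. The log2 fold changes in BRM014 were -4.54 for Sohlh2, -2.52 for Mbd1, 5.85 for Tnc, 4.05 for Dkk1 and 1.76 for Smarca2, and for none of these 5 was the difference between treatments called (adjusted p of the interaction from 0.0891 for Sohlh2 to 0.732 for Mbd1).

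Other effects did differ by treatment. The difference of the genotype effect between BRM014 and DMSO was called for 4280 genes (32.6%). Egr1 stood at 19.6 and 14.2 CPM in Snf2hko and 16.2 and 16.1 CPM in wild type under BRM014, against 2.38 and 2.55 CPM and 10.2 and 12 CPM in DMSO (difference 2.23 ± 0.22, adjusted p = 5.51e-07). Tap1, which rose in DMSO, stood at 8.8 and 9.31 CPM against 8.8 and 8.77 CPM (difference -1.82 ± 0.19, adjusted p = 6.68e-07). Smarcc1, lower in the knockout line in DMSO, was at 492 and 372 CPM against 466 and 458 CPM in BRM014 (difference 0.86 ± 0.13, adjusted p = 5.98e-05). Its 2 knockout libraries in BRM014 differed, and the genotype effect there was -0.32 without the first and 0.08 without the second. Fndc3c1 fell less in BRM014 (-1.15 against -3.68; adjusted p of the difference = 5.26e-08).

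The Snf2hko line was also compared directly with the Ino80ko line in DMSO. The Ino80 transcript itself was still present in Ino80ko, at a log2 fold change of -0.48 ± 0.07 against wild type, and its difference between the knockout lines was not called (0.02 ± 0.07, adjusted p = 0.837). Of the genes tested 7524 (57.4%) were called, 3816 higher and 3708 lower in Snf2hko. Gata4 was at 21.5 and 17.5 CPM in Ino80ko (log2 difference of Snf2hko over Ino80ko 3.48 ± 0.10; adjusted p = 1.67e-15), Cubn at 43.4 and 37.8 CPM (4.11 ± 0.12) and Amn at 1.53 and 1.79 CPM (5.14 ± 0.15). For these 3 genes Ino80ko lay below wild type and Snf2hko above it. Tex19.1 was at 59.8 and 62.6 CPM in Ino80ko (-1.82 ± 0.08) and Sohlh2 at 4.96 and 5.53 CPM (-2.68 ± 0.18), between wild type and Snf2hko. Mbd1 was at 68.9 and 66.0 CPM (-2.74 ± 0.08) and Atxn1l at 73.8 and 72.9 CPM (-3.99 ± 0.09), near their wild-type levels. Tfap2c was at 15.3 and 15.7 CPM, below wild type as in Snf2hko, and its difference between the 2 knockout lines was not called (0.21 ± 0.10, adjusted p = 0.0963).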

How the data were processed

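Total RNA of mouse embryonic stem cells was purified on columns and made into stranded total RNA libraries, per the labels' protocols. The submitters' processing notes name bcl2fastq 2.17, STAR and the builds GRCm38 and mm10. A counter or strand setting was not given in the sources used here. Raw counts per gene were deposited by the authors for 38 libraries, with the exonic width of each gene (another value, used as a gene property only).

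From these counts the 12 libraries of the second batch were fitted together with edgeR 4.0.16 (quasi-likelihood test, filterByExpr with a minimum count of 10, TMM, genes of chromosome Y removed, robust dispersion), with 1 mean per group and Benjamini-Hochberg adjustment over 13114 genes. The common biological coefficient of variation was 6.63%, there were 6 residual degrees of freedom, and the median half-width of the 95% interval of a log2 fold change was 0.18 for genes with a mean log2 CPM of at least 2. Replicates differed by more than sampling noise (chi-square per degree of freedom of 7.67 in Snf2hko and 16.0 in wild type). The fit was also run on simulated counts with known changes. There far fewer genes changed than were called here, and all genes had the same spread. That run therefore cannot check the scaling or the error rate in these data. Wild-type libraries of batch 2450 were put on the same CPM scale by TMM over 14 libraries.

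Named genes were the related ATPases, the 15 rises and the 15 falls of largest log2 fold change (called, at least 2-fold, mean log2 CPM of at least 2, no overlap of libraries, predicted gene models left out), up to 8 genes off in 1 line in each direction, and in each list the called members of lowest adjusted p, 4 at most; further members are named where a small count is given, and Sycp3, Hormad1, Cdx2, Zfp354c and Zfp2 were chosen after their values were seen. A few genes that the rule takes are not reported here. The members and the 40 gene lists were chosen with earlier results of these data known. Where a symbol had several identifiers, the one with the most counts was used. Positions are those of GENCODE M21 (GRCm38), in which 55144 of 55385 gene identifiers were found. Alternatives were DESeq2 1.42.0, RLE size factors, other filters, only the libraries compared, a left-out library, a replicate block, wild type of both batches with a batch term, chromosome Y kept, and a test against 1.5-fold.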

Additional observations from a re-analysis of the deposited data

Results flagged for a closer look

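Of the 130 genes named in the report that were tested, 52 are listed here because the effect of the genotype in BRM014 differed from that in DMSO (interaction term of edgeR's quasi-likelihood fit, adjusted p under 0.05, n = 2 libraries in each of 4 groups), against 32.6% of all genes tested. Values are the log2 fold change of Snf2hko over wild type in BRM014 less that in DMSO. In 33 of the 52 the effect was smaller in BRM014. Many of the named genes were chosen for large changes or low adjusted p in DMSO. The count of 33 is partly set by that choice and is no result about BRM014.

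Among genes higher in Snf2hko under both treatments, the effect was smaller in BRM014 for Platr15 -1.67, Ihh -1.80, S100a1 -2.51, S100g -1.31, Adrb1 -1.68, Klb -0.47, Clic5 -1.48, Gm40663 -4.16, Blk -3.52, Msx2 -1.11, Bmi1 -0.45, Bmp4 -0.64, Fgf3 -1.61, Fgfr3 -0.49, Fdft1 -0.30, Tap1 -1.82, Sox7 -0.94 and Mael -0.41. It was larger in BRM014 for Cubn 0.63, Tbx3 1.12, Dab2 0.59, Tead4 0.97 and Fgfr4 0.84. Among genes lower in Snf2hko under both treatments, the difference was smaller in size in BRM014 for Miip 0.63, Atxn1l 0.70, Fndc3c1 2.52, Nlrp4f 1.63, Zfp507 0.35, Zfp772 1.09, Chd7 0.73, Smarcc1 0.86, Ctcf 0.25, Fn1 0.68, Phc1 0.40 and Gbp2 1.38. It was larger in size in BRM014 for Smarca1 -0.71, Cyct -0.90, Ubash3a -1.40, Dtna -0.69, Man2b2 -1.16, Fbxo15 -0.73, Klf2 -0.47, Tex19.1 -1.06, Taf1b -0.42, Zfp42 -0.62, Esrrb -0.51, Ascl2 -1.77 and Hormad1 -0.71. These groups go by the sign of the log2 fold change, and the effects of Blk, Egr1, Tap1, Smarcc1, Zfp42 and Esrrb passed the test under 1 treatment only. The sign was opposite under the 2 treatments for Egr1 2.23, Tuba3a -1.08, Dhcr7 1.57 and Zmat3 1.25.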

How the results depend on the processing

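Calls of the genotype difference in DMSO numbered 6934 to 7487 under DESeq2, RLE size factors, other filters, chromosome Y kept, only the libraries compared, wild type of both batches and the replicate block, against 7412. The exception was the test against 1.5-fold (2643), which asks for a larger change. Leaving out 1 library gave 6024 to 6707 calls in DMSO, 6874 to 7486 in BRM014, 3183 to 4496 for the difference of the effects and 6224 to 6457 against Ino80ko; the remaining library of a group is then assumed to vary like the other groups. Genes off in 1 line were recounted with RLE size factors and without each library, a choice made after seeing the data. Without 1 library they numbered 17 to 24 (off in Snf2hko) and 6 to 13 (off in wild type). The direction of this change was fixed, because fewer libraries then have to meet the limits.

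With the replicate block there were 7487 calls in DMSO, 8121 in BRM014, 4320 for the difference and 7578 against Ino80ko. Knockout replicates are numbered 1 and 2 and wild-type replicates 3 and 4, and same-numbered deviations correlated between -0.0101 and 0.0423, so the numbers give no pairing. The block changed no call of a gene named in the report.

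Across all alternatives 1658 values of the named genes in DMSO stayed on their side of the threshold, 26 lost their call and 4 changed sign. In BRM014 these were 1401, 17 and 7, and 1 gained a call. The sign changed in DMSO for Pou5f1 (-0.15 to 0.048 over left-out libraries) and Apoa1 (-0.29 to 0.53, and -0.42 with wild type of both batches). It changed in BRM014 for Egr1 (-0.20 to 0.26, and -0.13 with wild type of both batches), Tap1 (-0.012 to 0.076), Smarcc1 (-0.32 to 0.075), Pou5f1 (-0.073 to 0.032) and Krt7 (-0.96 to 0.096). None of these was called in the setting with the changed sign, and the cause was not tested.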
